A study of Mus musculus with 3 samples.

Results

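The lysosomal genes described here are 36 mouse genes picked by symbol for their place in the lysosome. They comprise 10 proteases, namely 9 cathepsins and legumain, 2 lysozymes, 6 glycosidases and lipases, 2 precursor proteins and 3 membrane glycoproteins. A further 10 encode subunits of the vacuolar proton pump (V-ATPase), and 3 encode a calcium channel and the transcription factors TFEB and TFE3. All 36 were found among the 55536 annotated genes of the gene tables, of which 22028 code for protein. The RNA came from the chromatin fraction of C57BL/6J bone-marrow-derived macrophages, primary cells cultured out of marrow, and ribosomal RNA had been depleted before sequencing. The cells were exposed to Lipid A, the endotoxin moiety that Toll-like receptor 4 binds, at 100 ng/ml for 12 h, kept for 12 h after it was washed out, and exposed again at 100 ng/ml for 60 min. Replicates 1, 2 and 3 share this treatment and form 1 group of 3 libraries without an untreated arm, so the values are levels and isoform balances within treated cells. Sex and age were entered as not collected, the 3 libraries carry the same donor entry, and whether they came from separate mice or cultures is not stated, so every p-value reflects the spread among these 3 samples alone, which may be technical.

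Lysosomes are acidic compartments in which macrophages break down engulfed material. The V-ATPase pumps protons into the lumen through a membrane sector (V0) driven by an ATP-hydrolysing sector (V1), and the acid activates soluble proteases, glycosidases and lipases, while heavily glycosylated membrane proteins line the inner face. TFEB and TFE3 bind short DNA words around CACGTG in the promoters of many of these genes, and the calcium channel encoded by Mcoln1 acts upstream of them. Chromatin-associated RNA contains unfinished and unprocessed transcripts, so its amount is not that of mature mRNA or of enzyme.

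Gene counts summed to between 12602702 and 17222239 per library, which put the level of 3 counts at 0.174 to 0.238 CPM (counts scaled to the library's gene counts). The libraries were prepared from 1000, 250 and 500 ng of RNA in replicates 1, 2 and 3. Of 10 macrophage markers 8 had at least 10 TPM (an abundance per transcript length, scaled to the same total in each library) in every library, and all 10 neutrophil markers were undetected, with at most 3 counts in each library. Markers of fibroblasts and stroma set replicate 2 apart. The 11 genes summed to 3, 44265 and 110 counts in replicates 1, 2 and 3, and 11 of 11 were highest in replicate 2.

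The lysosomal genes as a whole had high levels of chromatin RNA. At least 10 TPM was reached in every library by 29 of the 36 genes, beside 16.7% of all protein-coding genes, and at least 100 TPM by 12 of 36, beside 2.15%. None of the 36 was undetected. Of the 13841 detected protein-coding genes, 26.6% had at least 10 TPM and 3.42% at least 100 TPM in every library. The median of those detected genes was 3.91 ± 1.70 TPM (SD, n = 3). The median of the 36 was 53.6, 70.0 and 54.5 TPM in replicates 1, 2 and 3, a mean of 59.4 ± 9.21 TPM (SD, n = 3). All protein-coding genes, undetected ones included, had medians of 0.25, 0.94 and 0.29 TPM. The 36 genes took 0.756, 0.652 and 0.505% of all gene counts. The other 91 genes of the lysosomal pathway, in 5 lists, had a median of 14.8 ± 4.97 TPM, with 46 of 91 at or above 10 TPM in every library. From the most to the least abundant member, the ranges of neighbours over the 3 libraries overlapped in 34 of 35 pairs, so ranks next to each other are not resolved. The exception was Atp6v0d2 over Lyz1. Summing kallisto transcript values in place of the RSEM gene values gave a median of 78.9 TPM, and 7 members lay more than 1.5 times higher.

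**Figure D1:**
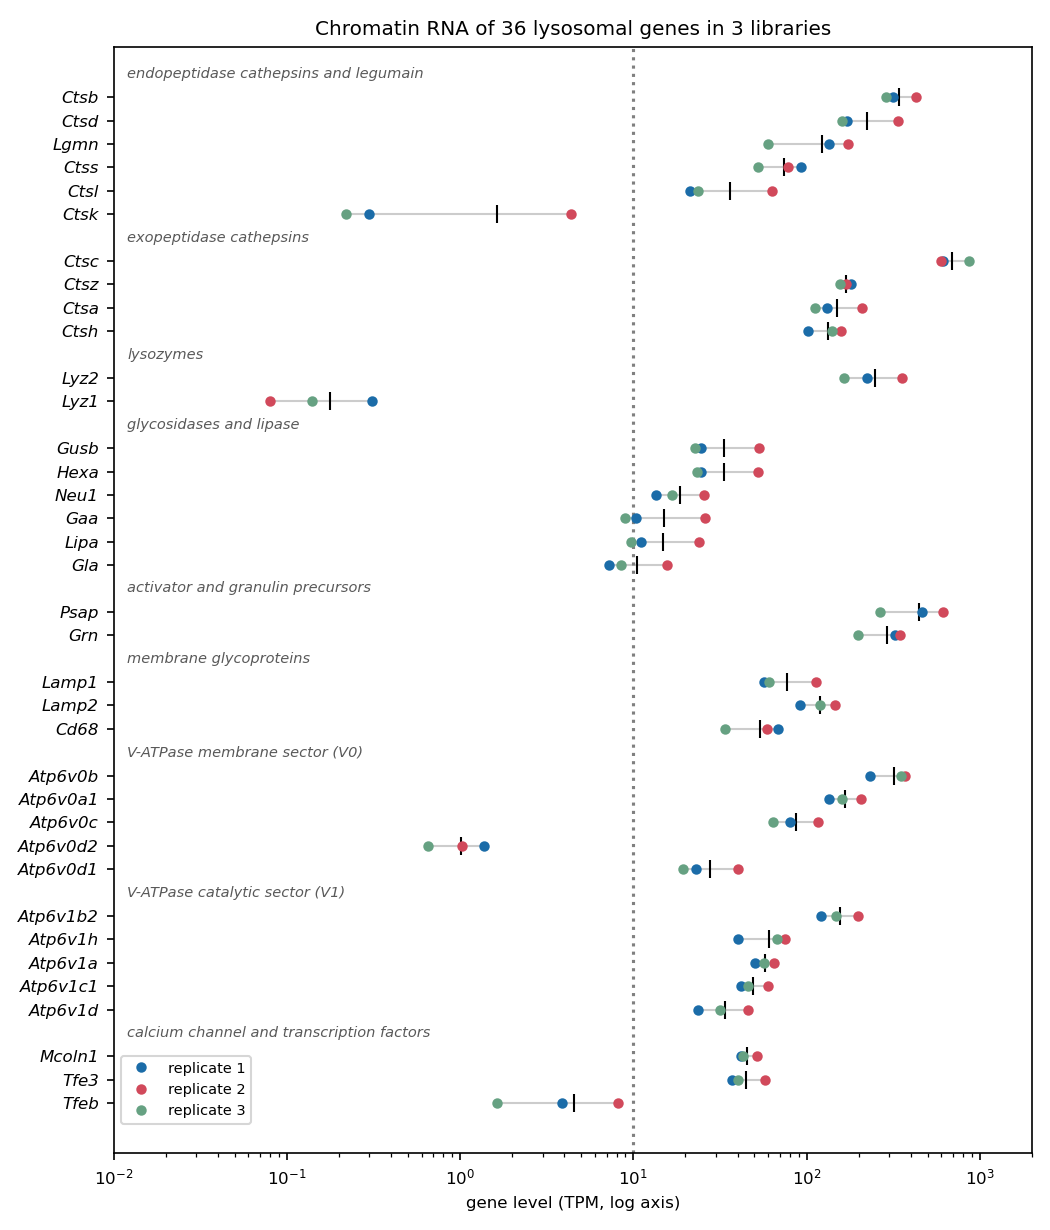
Chromatin RNA of the 36 lysosomal genes in TPM on a log axis, grouped by role, with 1 coloured point per replicate, a vertical tick at the mean, a grey line over the range and a dotted line at 10 TPM. Most genes lie right of the dotted line, while Ctsk, Lyz1, Atp6v0d2 and Tfeb lie left of it in every library.

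Among the proteases the exopeptidase gene Ctsc stood highest, and Ctsk lowest. Ctsc (ENSMUSG00000030560.17, mm10 chromosome 7, 88278085 to 88310888, + strand) encodes dipeptidyl peptidase 1, which activates serine proteases of immune cells. It had 614, 599 and 866 TPM in replicates 1, 2 and 3, a mean of 693 ± 150 TPM (SD, n = 3), and ranked at place 31 among all protein-coding genes. In TPM replicate 3 was the highest, unlike for most other members. In CPM replicates 1 and 3 were close, at 1250 and 1230, with replicate 2 at 740. The antisense gene Gm26522, which overlaps Ctsc over 4743 bases on the opposite strand, had 162, 164 and 233 TPM in the same order, and without a stated strand setting the reads of the pair cannot be told apart. The other exopeptidase genes were close together, with Ctsz at 169 ± 11.7 TPM, Ctsa at 151 ± 51.7 TPM and Ctsh at 133 ± 28.5 TPM. Ctsz, which encodes a carboxypeptidase, had 180, 170 and 157 TPM in replicates 1, 2 and 3.

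Of the endopeptidase genes, Ctsb had 313, 427 and 288 TPM and Ctsd 172, 338 and 160 TPM in replicates 1, 2 and 3. Their products, cathepsins B and D, are the abundant cysteine and aspartic proteases of the lysosome. Ctsd was highest in replicate 2, which held the stromal markers, but so were 30 of the 36 members and 78.2% of protein-coding genes in TPM. It shares 6757 bases on the same strand with the annotated gene Gm49369, which was lowest in replicate 2 at 68.0, 9.09 and 25.5 TPM. Lgmn, which encodes the asparaginyl endopeptidase legumain, had 135, 174 and 59.6 TPM. Ctss, the cathepsin that trims the invariant chain of MHC class II, had 92.4, 77.9 and 52.2 TPM, and Ctsl, a broad cysteine protease, had 21.3, 63.0 and 23.6 TPM. Ctsl too was highest in replicate 2, and kallisto gave Ctsl a mean of 82.3 TPM, against 36 TPM here.

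Ctsk encodes cathepsin K, the collagen-degrading protease best known from osteoclasts. It had 6, 72 and 4 counts, or 0.3, 4.36 and 0.22 TPM, in replicates 1, 2 and 3. Nearly all of its counts thus came from replicate 2, where the collagen gene Col1a1 had 16804 counts, beside 0 and 36 counts in replicates 1 and 3. The part of stromal cells in the Ctsk counts was not tested. Of 10 osteoclast markers 0 had at least 10 TPM in every library, and 4, Calcr, Ocstamp, Dcstamp and Oscar, were undetected. The others were detected, and 3 of the 10 had at least 1 TPM in every library. The 10 summed to 534, 992 and 610 counts in replicates 1, 2 and 3. Ctss exceeded Ctsk by 6.44 ± 2.02 on the log2 TPM scale (SD, n = 3), and by 7.60 without replicate 2, in 3 of 3 libraries.

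The lysozymes, which cleave bacterial cell walls, were set against each other because their genes lie side by side on chromosome 10. Lyz2 (117277331 to 117282321, − strand) had 222, 354 and 164 TPM in replicates 1, 2 and 3, and its paralog Lyz1 (117287797 to 117292868, − strand) had 0.31, 0.08 and 0.14 TPM, from 5, 1 and 2 counts. Every Lyz2 value lay above every Lyz1 value. The log2 ratio of Lyz2 over Lyz1 was 9.81 ± 0.99 (SD, n = 3), and since 42.2% of the 25-base words of Lyz1 transcripts also occur in Lyz2, the few Lyz1 counts could be misassigned Lyz2 reads or its own, which cannot be told apart here. The exact two-sided sign-flip permutation test over 3 libraries gave p = 0.25 for this and for each of the 5 paralog pairs compared, also 0.25 after Benjamini-Hochberg adjustment. That is the smallest p that 3 libraries allow, so no pair could pass 0.05.

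The genes of the glycosidases and of lysosomal acid lipase were the lowest of the enzyme groups. Only 3 of 6 had at least 10 TPM in every library, and their median was 17.0 ± 7.5 TPM (SD, n = 3). In the kallisto sums 6 of 6 reached that level, with means of 25.4 TPM for Gla and 22.7 TPM for Gaa, against 10.4 and 15.02 TPM here. Gusb, which encodes beta-glucuronidase, had 24.5, 52.8 and 22.6 TPM, and Hexa, which encodes a subunit of beta-hexosaminidase, had 24.5, 52.1 and 23.2 TPM in replicates 1, 2 and 3. Neu1, the gene of the lysosomal sialidase, had 13.5, 25.5 and 16.7 TPM. Gaa, which encodes acid alpha-glucosidase and degrades glycogen, had 10.3, 25.8 and 8.92 TPM. Lipa, the acid lipase gene, had 11.0, 24.1 and 9.65 TPM and Gla, the alpha-galactosidase gene, 7.20, 15.6 and 8.48 TPM. All 6 were highest in replicate 2, on the TPM and CPM scales and in the kallisto sums. Replicates 1 and 3 lay close to each other in TPM, but not throughout in CPM. There Gla had 25.1, 26.4 and 12.7, and Hexa 52.2, 69.5 and 33.8, in replicates 1, 2 and 3. Most protein-coding genes were also highest in replicate 2, 78.2% in TPM, 61.7% in CPM and 64.2% in the kallisto sums. Replicate 2 is also the library with 44265 stromal marker counts, and the part of that RNA in these levels was not tested. In bulk RNA, fewer cells of a type and less RNA per cell cannot be told apart.

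The precursor genes Psap and Grn ranked with the most abundant proteases. Psap, whose product is cut into the saposins that present sphingolipids to hydrolases, had 461, 616 and 265 TPM in replicates 1, 2 and 3. Grn, which encodes the progranulin precursor, had 325, 347 and 198 TPM. Both were lowest in replicate 3. Of the membrane glycoproteins, the major lysosomal coat protein gene Lamp1 had 56.9, 114 and 60.8 TPM and Lamp2, which also serves chaperone-mediated autophagy, had 92.0, 147 and 120 TPM. Lamp1 was below Lamp2 in 3 of 3 libraries, by a log2 difference of −0.68 ± 0.31 (SD, n = 3, exact sign-flip p = 0.25), although their ranges overlapped. Cd68, a macrophage-enriched member of the same family, had 68.3, 59.4 and 34.0 TPM.

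Of the 10 V-ATPase members, 9 had at least 10 TPM in every library. In the membrane sector, Atp6v0b (mm10 chromosome 4, 117884326 to 117887333, − strand), which encodes a proteolipid of the rotor ring, had 233, 370 and 350 TPM in replicates 1, 2 and 3. The main proteolipid gene Atp6v0c had 80.6, 116 and 64.0 TPM. Atp6v0a1, which encodes a version of the large proton-channel subunit a, had 134, 206 and 159 TPM. It held 13.8 ± 0.38% of the summed TPM of the 4 a subunit genes, while Tcirg1, whose product is the a3 subunit, held 85.5 ± 0.483% at 852, 1277 and 950 TPM. This split was nearly the same in each library, and the kallisto sums gave 15.8 and 83.3%. Atp6v0a4, the version of kidney intercalated cells, was undetected.

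The subunit d, which joins the sectors, is encoded by Atp6v0d2, known from osteoclasts and some macrophages, and by the widely expressed Atp6v0d1. Atp6v0d2 had 1.37, 1.03 and 0.65 TPM from 38, 31 and 15 counts, and Atp6v0d1 had 23.0, 40.4 and 19.5 TPM. The log2 ratio of Atp6v0d2 over Atp6v0d1 was −4.61 ± 0.60 (SD, n = 3, exact sign-flip p = 0.25), below 0 in 3 of 3 libraries, and Atp6v0d1 held 96.2 ± 1.63% of the d subunit TPM. No 25-base word of Atp6v0d2 transcripts was found in Atp6v0d1. In the catalytic sector, Atp6v1b2, a gene of the nucleotide-binding subunit B, had 121, 197 and 149 TPM, and the catalytic subunit gene Atp6v1a had 50.4, 64.5 and 56.8 TPM. Atp6v1b2 held 99.9% of the B subunit TPM, and Atp6v1b1 had 0, 4 and 1 counts. The regulatory subunit genes Atp6v1h and Atp6v1c1 had 40.2, 75.5 and 67.5 TPM and 42.0, 59.8 and 45.9 TPM, and the rotor stalk gene Atp6v1d had 23.6, 46.1 and 31.7 TPM. Atp6v1c1 held 99.9% of the C subunit TPM. Outside the 36, Atp6v1e1 had 81.1 ± 7.79 TPM and the accessory subunit gene Atp6ap1 46.3 ± 8.21 TPM, while Atp6v1c2, Atp6v1e2 and Atp6v1g3 were undetected. Not every alternative gene was that low. Atp6v1g2, named after its value had been seen, held 23.8 ± 4.82% of the G subunit TPM, and 36.3% in the kallisto sums.

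**Figure D2:**
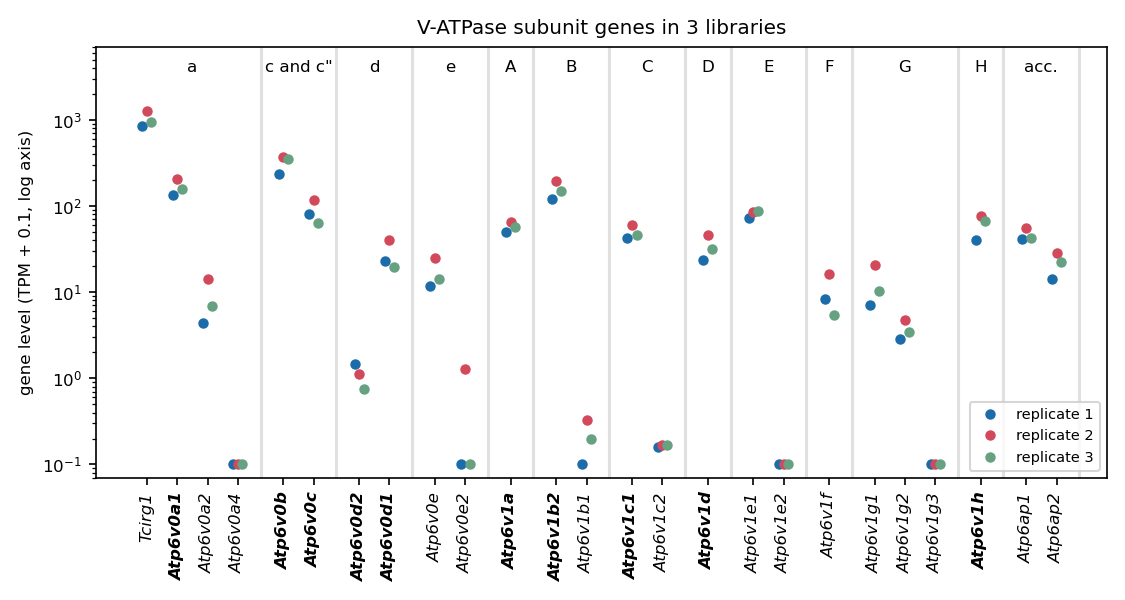
Levels of V-ATPase subunit genes in TPM plus 0.1 on a log axis, by subunit (lower case for the membrane sector, capitals for the catalytic sector, acc. for accessory), with 1 point per replicate and the lysosomal members described here in bold. Where a subunit has several genes, 1 of them is highest in every library, and genes without counts sit at 0.1.

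With all isoforms summed, Mcoln1 and Tfe3 had similar levels, and Tfeb was much lower. Mcoln1, the gene of the calcium channel TRPML1, had 41.8, 52.0 and 42.9 TPM in replicates 1, 2 and 3. Tfe3 had 37.2, 57.4 and 40.4 TPM, and Tfeb had 3.85, 8.13 and 1.63 TPM from 81, 141 and 39 counts. The log2 ratio of Tfe3 over Tfeb was 3.53 ± 0.91 (SD, n = 3, exact sign-flip p = 0.25) and 1.83 in the kallisto sums, above 0 in 3 of 3 libraries. In protein-coding isoforms alone, Tfe3 had 6.25, 6.59 and 5.24 TPM and Tfeb 3.52, 7.40 and 1.63 TPM in replicates 1, 2 and 3. Tfeb was thus the higher in replicate 2. It was also higher in the kallisto means of these isoforms, at 11.1 against 7.35 TPM. Within the MiT family, to which both belong, Tfec held the most RNA, with 139, 151 and 387 TPM or 66.1 ± 12.5% of the summed TPM. Mitf, named after its value had been seen, held 16.7 ± 6.19%, Tfe3 15.5 ± 6.91% and Tfeb 1.71 ± 1.40%. The TPM of Tfec was highest in replicate 3, where Tfeb was lowest.

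Because the MiT factors bind CACGTG, the word was looked for in RefSeq promoters (GRCm38.p6, 250 bases before to 50 after the start), which were matched for 30 of the 36 members. CACGTG is its own reverse complement, so 1 search covers both strands. It occurred in 11 of 30 members (36.7%) and in 8.09% of the 27025 genes with a promoter in the table. The longer word TCACGTGA, which contains it, occurred in 6 of 30 members (20.0%) and in 1.12% of all these genes. Extended by a G before it and a C after it, TCACGTGA occurred in 0 of 30 members and in 0.37% of all these genes. CACGTG preceded by GT, on either strand, occurred in 8 of 30 members (26.7%) and in 2.55% of all these genes. The members with CACGTG were Ctsa, Ctsd, Ctsl, Lgmn, Lamp1, Gla, Gaa, Atp6v0b, Atp6v0d1, Atp6v1a and Mcoln1. Their median level was 57.2 TPM, beside 53.9 TPM for the 19 matched members without it. A match describes the letters and not binding. These windows are shown with CACGTG in capitals because they place the word close to the RefSeq start of genes of different roles, a channel, a coat protein and proteases. They are chr8:3500454-3500499 (+ strand) for Mcoln1, chr8:13159113-13159158 (+ strand) for Lamp1, chr7:142387900-142387945 (− strand) for Ctsd and chr12:102439116-102439161 (− strand) for Lgmn, where the word begins 45, 28, 98 and 49 bases before the RefSeq start. By the GENCODE M21 gene bounds, Mcoln1, Ctsd and Lgmn begin farther upstream, at 3500457, 142388038 and 102439813, so the word lies inside them.
Mcoln1: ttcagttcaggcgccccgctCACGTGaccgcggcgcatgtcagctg
Lamp1: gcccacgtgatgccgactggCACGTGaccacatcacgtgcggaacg
Ctsd: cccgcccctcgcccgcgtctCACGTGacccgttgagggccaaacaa
Lgmn: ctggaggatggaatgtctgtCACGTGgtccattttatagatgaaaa
The Lamp1 stretch holds further copies of the word, left in lower case.

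Replicate 2 gave higher TPM for most genes, and the lysosomal genes differed in how far they followed. In TPM, 30 of 36 members were highest in replicate 2, beside 78.2% of protein-coding genes, and in CPM 14 of 36, beside 61.7%. The median log2 difference of replicate 2 from the mean of replicates 1 and 3 was 0.63 for the members and 0.71 for 11074 protein-coding genes in TPM. Relative to that protein-coding median, Ctsk was higher by 2.93, Tfeb by 0.94, Ctsl by 0.77 and Gaa by 0.71, whereas Lyz1, with at most 5 counts a library, differed by −1.51, Ctsc by −0.99 and Ctsz by −0.70. The V-ATPase genes Atp6v1b2 and Atp6v0a1 lay close to it, at −0.16 and −0.22. In the kallisto sums Ctsl had 75.2, 88.8 and 82.8 TPM in replicates 1, 2 and 3, so replicate 2 stood out little there. All 6 glycosidase and lipase genes lay above the protein-coding median in TPM, from 0.05 for Neu1 to 0.71 for Gaa. These are values of 1 library against 2 others, with no test, and the stromal marker counts and the smallest starting amount, 250 ng, coincide in that library. Over the 29 members with at least 10 TPM in every library, the median coefficient of variation was 0.303, beside 0.234 for 3687 protein-coding genes at that level.

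**Figure D3:**
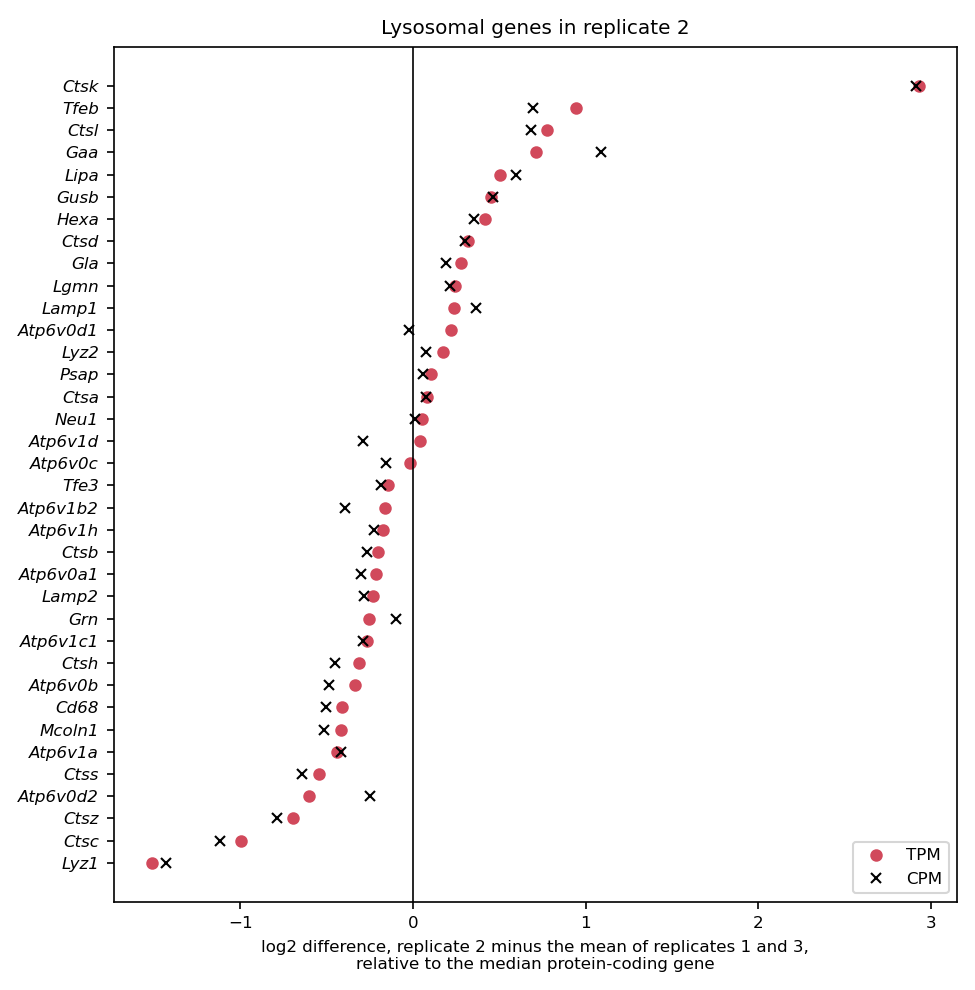
The log2 difference of replicate 2 minus the mean of replicates 1 and 3 for each lysosomal gene, after subtracting the median over protein-coding genes, in TPM (circles) and CPM (crosses). Ctsk lies farthest right at 2.93, glycosidase and lipase genes lie right of 0, and Ctsc and Ctsz lie left of 0 on both scales.

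Chromatin RNA can hold introns that have not been removed, so each gene's annotated retained-intron isoforms were set against its protein-coding isoforms. Both classes are annotated for 23 members, and 22 of them passed the minimum of 5 TPM in sum, Tfeb being the 1 that did not. With limma and an adjusted p of at most 0.05, 8 of 22 had more TPM in the retained-intron class, beside 24.3% of the 4311 genes tested, and 6 of 22 had more in the protein-coding class, beside 25.6%. The median log2 ratio was −0.17 over the 22 members and −0.06 over all genes tested. Shares this near the background are no result about the group, but single members stood far apart. The log2 ratio had 1 sign in all 3 libraries for 21 of 22 members, beside 75.5% of genes tested, Grn being the exception. Without replicate 3, 8 of the 14 calls were lost, those of Atp6v0d1, Atp6v1a, Atp6v1d, Atp6v1h, Ctsa, Ctsb, Lamp2 and Lgmn, with adjusted p of 0.051 to 0.15 in limma and no change of direction. Tfeb then passed the minimum and was called in the protein-coding class, which left 4 members in the retained-intron class and 3 in the other.

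**Figure D4:**
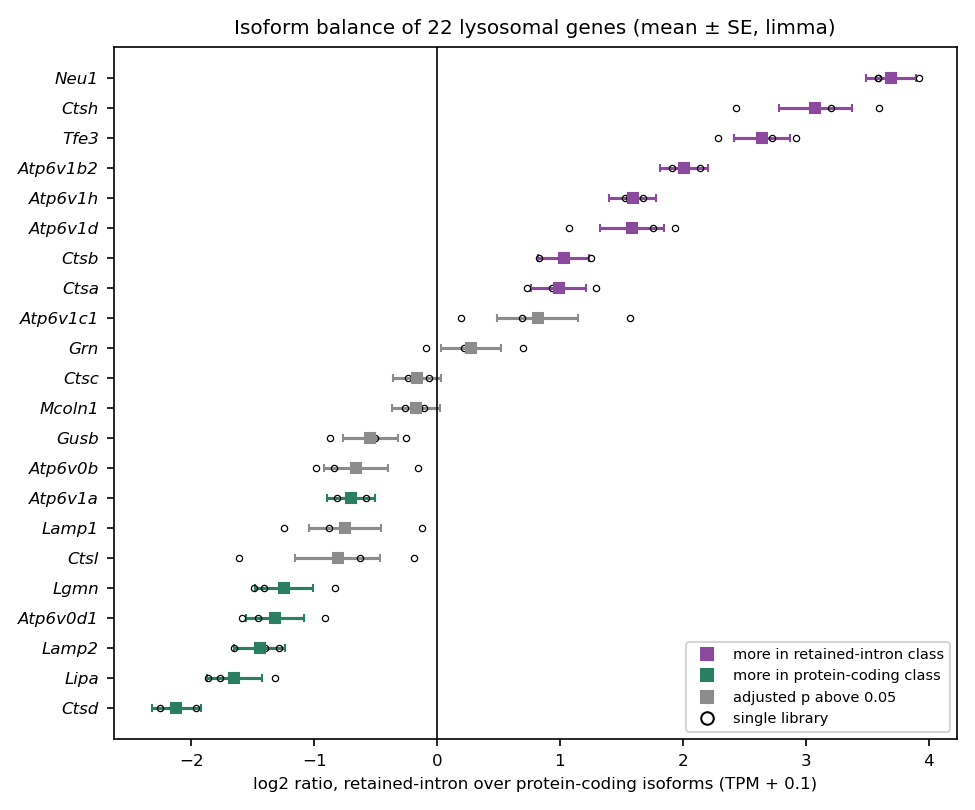
The log2 ratio of retained-intron over protein-coding TPM for the 22 lysosomal genes tested, as the limma mean with its SE (squares) and the 3 libraries (open circles), where 0 marks equal TPM. Neu1, Ctsh and Tfe3 lie farthest right, between 2.64 and 3.70, and Ctsd farthest left at −2.12.

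The largest ratio belonged to the sialidase gene Neu1 (ENSMUSG00000007038.5, mm10 chromosome 17, 34931253 to 34935953, + strand). Its retained-intron isoforms had 12.8, 23.7 and 15.5 TPM and its protein-coding isoform 0.75, 1.88 and 1.20 TPM in replicates 1, 2 and 3, a log2 ratio of 3.70 (SE 0.20, limma adjusted p = 0.0029). The ranges of the classes did not overlap. All of the retained-intron TPM lay in the model Neu1-202, which at 3619 bases is longer than the protein-coding model of 2474 bases and keeps intron 3, of 1174 bases. Ctsh, which encodes an aminopeptidase, had 80.5, 131 and 113 TPM in retained-intron isoforms and 14.8, 10.8 and 12.2 TPM in protein-coding ones, a log2 ratio of 3.08 (SE 0.30, limma adjusted p = 0.0041). Its most abundant such model, Ctsh-203, keeps intron 8, of 1296 bases. Ctsh-203 was the only 1 of 6 retained-intron models of Ctsh that spanned a complete intron. It had a mean of 26.7 TPM, of 108 TPM in the class. In the kallisto values it had 27.8 TPM, below Ctsh-207 at 55.3 TPM. Tfe3 had 30.9, 50.5 and 35.1 TPM in the retained-intron class and 6.25, 6.59 and 5.24 TPM in the protein-coding class, a log2 ratio of 2.64 (SE 0.23, limma adjusted p = 0.0035). Protein-coding isoforms thus held 13.8 ± 2.75% of the RNA of Tfe3, while those of Tfeb held 94.2 ± 5%. With a minimum of 1 TPM, Tfeb entered the test with a log2 ratio of −3.47 (SE 0.31, limma adjusted p = 0.0077). The calls of Neu1, Ctsh and Tfe3, like that of Ctsd, were kept in all 12 settings.

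Of the 5 members in the V1 sector of the proton pump, 3 were called in the retained-intron class and 1 in the protein-coding class, beside 24.3 and 25.6% of all genes tested. Atp6v1b2 had 95.8, 161 and 119 TPM in retained-intron isoforms and 25.5, 36.4 and 29.98 TPM in the protein-coding isoform, a log2 ratio of 2.01 (SE 0.20, limma adjusted p = 0.0041). The limma log2 ratio was 1.59 for Atp6v1h (SE 0.19, adjusted p = 0.0062) and 1.59 for Atp6v1d (SE 0.26, adjusted p = 0.011). Atp6v1a went the other way, with 18.2, 24.6 and 22.7 TPM in the retained-intron class and 32.1, 39.9 and 34.1 TPM in the protein-coding class, a log2 ratio of −0.70 (SE 0.20, limma adjusted p = 0.042). That call was lost without any 1 replicate, at adjusted p = 0.11 to 0.15, and with lower minimums. In expected counts Atp6v1b2 had a ratio of −0.076 (adjusted p = 0.72) and Atp6v1d of −1.29, called in the protein-coding class. Atp6v1c1 did not pass, at 0.82 (SE 0.33, limma adjusted p = 0.10). In the kallisto sums Atp6v1h had a ratio of 0.11 (adjusted p = 0.62) in place of its call.

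The protease genes were divided. The limma log2 ratio was 1.03 for Ctsb (SE 0.21, adjusted p = 0.018) and 0.99 for Ctsa (SE 0.22, adjusted p = 0.023). In expected counts, which are not divided by length, the ratios were −1.18 for Ctsb and −1.60 for Ctsa, with the call in the protein-coding class. Retained-intron models have a median length of 1035 bases in Ctsb and 667 bases in Ctsa, and protein-coding models 4743 and 961 bases. These medians are not weighted by level. In Ctsa the protein-coding model Ctsa-202, of 2534 bases, held 40.5 of 51.3 TPM in its class. The most abundant retained-intron model, Ctsa-212, has 436 bases. Ctsd stood at the other end, with 35.1, 58.5 and 29.3 TPM in its retained-intron isoform and 137, 279 and 130 TPM in protein-coding isoforms, a log2 ratio of −2.12 (SE 0.20, limma adjusted p = 0.0038). Lgmn had a ratio of −1.24 (SE 0.24, limma adjusted p = 0.016). Ctsc and Ctsl did not pass, with ratios of −0.16 and −0.81, and Ctsc was called in the retained-intron class in the kallisto sums at 0.79. Among the remaining members, protein-coding isoforms led for Lipa at −1.65 (SE 0.22, adjusted p = 0.0075), Lamp2 at −1.44 (SE 0.20, adjusted p = 0.0081) and Atp6v0d1 at −1.32 (SE 0.24, adjusted p = 0.014) in limma. With all isoforms not protein coding in the numerator the calls of Lipa and Lamp2 were lost, at adjusted p = 0.072 and 0.65 in limma, and with kallisto TPM that of Atp6v0d1, at 0.28. Lamp1, Gusb, Atp6v0b, Mcoln1 and Grn did not pass, with ratios between −0.75 and 0.28.

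A retained-intron model need not contain a whole intron, since it may begin or end inside one. In 12 members such a model spanned at least 1 complete intron of a protein-coding isoform, 26 distinct introns in all. The 12 were Atp6v0b, Atp6v1b2, Atp6v1c1, Atp6v1h, Ctsa, Ctsh, Grn, Gusb, Lipa, Mcoln1, Neu1 and Tfe3. Ctsb and Atp6v1d were called in the retained-intron class, but none of their models in that class spanned a complete intron. In Atp6v1b2, 2 of 5 retained-intron models did. All 26 began with GT and ended with AG. They were 81 to 2523 bases long, with a median of 261.5 bases, and 12 were under 200 bases. The splice sites of the introns kept in the most abundant such models of Neu1, Ctsh and Atp6v1b2 and in Tfe3 are shown, since these genes had large ratios, as 30 bases across each donor and acceptor with the exon in capitals and the intron in lower case (GENCODE M21 transcripts, mm10). The introns are chr17:34932829-34934002 in Neu1, chr9:90067109-90068404 in Ctsh, chrX:7769548-7770773 in Tfe3 (intron 6) and chr8:69102591-69102761 in Atp6v1b2 (intron 6), all on the + strand.
Neu1 donor: GGCTCAGGCATTCAGgtttcaccctgtgga
Neu1 acceptor: tcctcttcttaacagAAACAGCGGGAGCCT
Ctsh donor: CCTTACATAGGCAAGgtaactgtgggtggc
Ctsh acceptor: tttcaccccgaacagGATAGTTCATGCAGA
Tfe3 donor: AACGCGAGATCTCCGgtaagtgttagggac
Tfe3 acceptor: ctcactctcttccagAAACCGAGGCAAAGG
Atp6v1b2 donor: TTACCACACAACGAGgtgagggcagatgga
Atp6v1b2 acceptor: tttcatccttaacagATTGCAGCTCAGATC
Ctsa keeps the short introns 3 and 5, of 111 and 89 bases, in several models. In the kallisto values Ctsa-211, which keeps intron 5, was above Ctsa-212, which keeps intron 3, at 30.1 against 20.2 TPM. Intron 3 is printed whole with 10 exonic bases on either side (chr2:164834199-164834329, + strand), because Ctsa-212 was the most abundant retained-intron model of that gene in RSEM, at 35.3 ± 12.3 TPM (SD, n = 3).
Ctsa intron 3: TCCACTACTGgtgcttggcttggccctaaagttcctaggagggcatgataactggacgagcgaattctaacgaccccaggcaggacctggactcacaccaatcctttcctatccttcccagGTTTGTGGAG

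Classes other than retained intron and protein coding held much of the RNA of some V-ATPase genes. Atp6v0a1 had 84.7, 146 and 109 TPM in models annotated as processed transcripts and 49.1, 59.2 and 50.4 TPM in protein-coding models, and Atp6v0c had 45.6, 70.4 and 45.8 TPM against 35.0, 45.6 and 18.2 TPM. Neither has a retained-intron model, so neither entered the comparison above. With all isoforms not protein coding in the numerator, the log2 ratio was 1.07 for Atp6v0a1 (adjusted p = 0.021) and 0.78 for Atp6v0c (adjusted p = 0.077) in limma. In Lamp2 processed transcripts held 28.6 ± 4.24% of the TPM, and in Gusb a model subject to nonsense-mediated decay held 28.4 ± 1.52% (SD, n = 3). For 9 members, Ctsk, Ctss, Ctsz, Lyz1, Lyz2, Hexa, Gla, Psap and Atp6v0d2, all annotated models are protein coding, so the annotation leaves no isoform in which an intron could be counted.

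**Figure D5:**
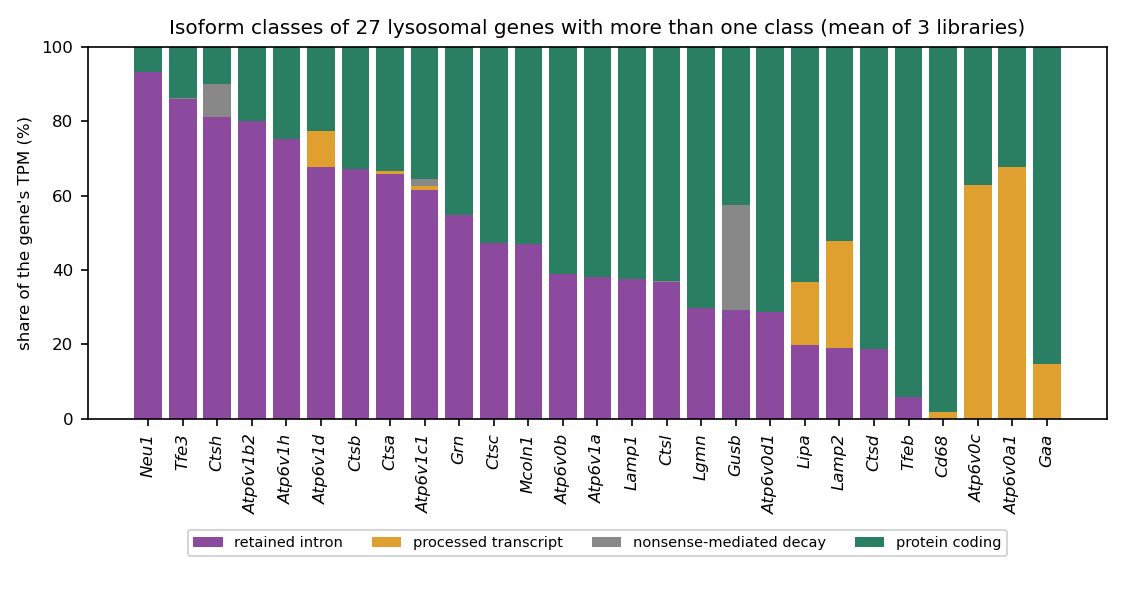
Shares of each gene's TPM in retained-intron, processed, nonsense-mediated decay and protein-coding isoforms, as means of 3 libraries, for the 27 lysosomal genes with more than 1 annotated class. The retained-intron share is highest for Neu1 at 93.3% and lowest for Ctsd at 18.7% and Tfeb at 5.78%, and Cd68, Atp6v0c, Atp6v0a1 and Gaa have no retained-intron model.

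The other genes of the pathway were read from the same fit. Of 91, 43 were tested, with 10 (23.3%) in the retained-intron class and 10 (23.3%) in the protein-coding class, beside 24.3 and 25.6% of all genes tested, so that the counts are no result about these genes. For Rptor, which encodes the mTORC1 subunit raptor, the log2 ratio reached 4.46 (SE 0.57, adjusted p = 0.0067), for Rheb, the GTPase that activates mTORC1, 2.75 (SE 0.24, adjusted p = 0.0036), for the peptidase gene Tpp1 2.56 (SE 0.36, adjusted p = 0.0079) and for the cholesterol carrier gene Npc2 2.21 (SE 0.20, adjusted p = 0.0036), all in limma. At the other end, Gnptab, whose product adds the mannose 6-phosphate tag for lysosomal sorting, had −3.91 (SE 0.74, adjusted p = 0.016), Scarb2, the receptor that carries beta-glucocerebrosidase, −3.06 (SE 0.22, adjusted p = 0.0029) the cation channel gene Tpcn1 −2.80 (SE 0.27, adjusted p = 0.004), the Rag GTPase gene Rragc −2.63 (SE 0.52, adjusted p = 0.017) and the kinase gene Mtor −2.44 (SE 0.40, adjusted p = 0.011) in limma. Rptor and Mtor, whose products share a complex, thus had ratios of opposite sign. By level, the other hydrolase genes had a median of 7.45 ± 3.68 TPM over 28 genes. The other membrane proteins and transporters had a median of 23.3 ± 5.01 TPM over 20 genes. They were led by Clcn7, the chloride-proton exchanger, at 363 ± 38.7 TPM, and Lamp5 was undetected. Of the 10 genes of sorting to the lysosome, M6pr, a mannose 6-phosphate receptor gene, had 50.9 ± 10.6 TPM and Sort1 1.03 ± 0.875 TPM.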

How the data were processed

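Chromatin RNA libraries of 3 replicates of 1 treatment were used. Expected counts and TPM per gene and per transcript (maximum likelihood and posterior mean) were deposited by the authors in the layout of RSEM, and estimated counts and TPM per transcript in the layout of kallisto, on mm10 with GENCODE M21 per the file headers and file notes. The sources used here do not name the aligner, strand setting or versions, so overlapping and antisense genes may share reads. Rows naming no gene (0.269 to 1.94% of counts) were left out. Intervals are SDs over 3 libraries, and floors of 3 counts cover counting error only.

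A gene's level is the TPM that the authors deposited, which sums all isoforms and so depends on which are annotated. Isoform balance was log2 of retained-intron over protein-coding TPM, each plus 0.1, which shrinks ratios of low genes. It was tested against 0 with limma 3.58.1 in R 4.3.3 in genes of both classes with at least 5 TPM in sum, with Benjamini-Hochberg adjustment over all 4311 genes at 0.05. A ratio of 0 marks equal TPM, not equal splicing. Paralog pairs were tested by exact sign flips. Tables were handled with Python 3.11.15 and pandas 2.3.3.

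Members and lists were chosen with earlier results of these data known. All 36 members could be named. From each other list the 3 highest, the lowest detected, all undetected genes and those past the isoform threshold could be named, as could genes overlapping a member. Alternatives were expected counts, posterior mean and kallisto TPM, other pseudocounts and minimums, all isoforms not protein coding in the numerator, and each replicate left out.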

Additional observations from a re-analysis of the deposited data

How the results depend on the processing

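The median level of the lysosomal genes was 78.9 TPM with kallisto sums and 54.1 to 62.3 TPM with 1 replicate left out. The number at or above the minimum in every library was 12 at a minimum of 100 TPM and 29 to 31 with 1 replicate left out. Over all genes, the retained-intron calls numbered 1810 with kallisto TPM and 351 to 901 with 1 replicate left out, and the protein-coding calls 2372 with expected counts and 473 to 849 with 1 replicate left out. Among the members, expected counts gave 5 retained-intron and 14 protein-coding calls, and leaving out 1 replicate gave 4 to 8 and 3 to 5. Expected counts are not divided by length. With them the log2 ratio turned to −0.076 for Atp6v1b2, −1.29 for Atp6v1d, −1.60 for Ctsa, −1.18 for Ctsb and −1.51 for Grn. With kallisto TPM it turned to 0.79 for Ctsc, 0.59 for Ctsl, 0.20 for Gusb and 0.32 for Mcoln1, and with all isoforms not protein coding in the numerator to 0.43 for Gusb. The cause was not tested. Posterior mean TPM and pseudocounts of 1 and 0.01 changed no direction or call among the 22 members tested. Each paralog ratio kept its sign in all settings run. With 3 libraries of 12602702 to 17222239 gene counts, Ctsk, Lyz1, Atp6v0d2 and Tfeb rest on few counts. No paired analysis was possible because all libraries belong to 1 group.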
